A study of Mus musculus with 8 samples.

Results

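The 8 enzymes of the pentose phosphate pathway were examined in RNA sequencing libraries of nephron progenitor cells mutant for Vhl and of their controls. The members were taken by name from the 20254 genes of the table. G6pdx, H6pd, Pgls and Pgd form the oxidative arm, and Rpia, Rpe, Tkt and Taldo1 form the non-oxidative arm. All 8 had enough reads to be tested. Pgd was the member that rose in mutants, and the other 7 were not called.

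The pathway branches from glycolysis at glucose 6-phosphate. Its oxidative arm makes NADPH, which cells use for biosynthesis and for keeping glutathione and thioredoxin reduced, and ends in ribulose 5-phosphate. The non-oxidative arm interconverts sugar phosphates reversibly, so that ribose 5-phosphate can be drawn off for nucleotides or returned to glycolysis. Hypoxia-inducible factor (HIF), the transcription factor that Vhl marks for degradation, is known to raise genes of glucose uptake and glycolysis.

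Mutants (4 libraries) had the genotype VHLNP-/- in the sorted cells, and controls (4 libraries) had VHLNP+/-. All 8 libraries came from kidneys at embryonic day 17.5 of the strain Six2EGFPcre, whose transgene places GFP and Cre recombinase under Six2, a transcription factor of nephron progenitors. Cells were sorted by GFP, so cells without the transgene's expression were not the aim of the sort. Reads of markers of other cell types were still present in every library, as given below. Controls also carried the transgene and 1 deleted allele. The labels do not say how many embryos gave each library or whether the libraries came from different animals, so p-values here rest on the spread among libraries of a group and may miss the variation between animals. In such bulk libraries, fewer cells of a type and less RNA per cell cannot be told apart.

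Promoter windows are shown for Pgd, the member that rose, for Taldo1, the member furthest below controls, and for G6pdx, which starts the pathway and was not called. Each runs from 250 bases before to 50 bases after an annotated start (RefSeq, GRCm38.p6, 5′ to 3′ on the gene's strand). Capitals mark ACGTG or GCGTG, the core to which HIF binds, where CACGC is GCGTG read on the other strand. The Pgd window is chr4:149166656-149166955 on the minus strand, the Taldo1 window chr7:141391910-141392209 on the plus strand and the G6pdx window chrX:74428831-74429130 on the minus strand.
Pgd: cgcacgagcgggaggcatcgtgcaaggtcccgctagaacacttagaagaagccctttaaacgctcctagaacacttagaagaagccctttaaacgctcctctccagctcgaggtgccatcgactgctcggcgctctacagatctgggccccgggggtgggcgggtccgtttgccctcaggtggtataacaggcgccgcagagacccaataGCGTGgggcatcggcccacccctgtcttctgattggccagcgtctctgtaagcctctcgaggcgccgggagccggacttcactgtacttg
Taldo1: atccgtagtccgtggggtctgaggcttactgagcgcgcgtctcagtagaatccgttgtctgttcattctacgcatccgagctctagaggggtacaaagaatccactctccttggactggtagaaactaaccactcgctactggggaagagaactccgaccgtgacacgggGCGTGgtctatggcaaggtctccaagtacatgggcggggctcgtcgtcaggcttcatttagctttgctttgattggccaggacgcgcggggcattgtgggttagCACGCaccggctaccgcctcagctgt
G6pdx: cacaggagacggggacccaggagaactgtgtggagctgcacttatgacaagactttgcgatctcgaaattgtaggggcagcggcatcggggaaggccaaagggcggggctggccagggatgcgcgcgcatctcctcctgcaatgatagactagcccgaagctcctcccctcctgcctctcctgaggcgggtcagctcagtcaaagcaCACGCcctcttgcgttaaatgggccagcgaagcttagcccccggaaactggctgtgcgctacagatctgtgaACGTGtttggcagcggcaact

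The Pgd window held 1 match, GCGTG, which began 40 bases before the start. A second annotated start of Pgd had 0 matches to either form of the core in its window. The Taldo1 window held 2 matches of GCGTG, 80 bases before and 25 bases after the start. The G6pdx window held 1 GCGTG 43 bases before and 1 ACGTG 30 bases after the start. The core was present in 6 of the 9 windows of the members, 1 for each of 6 genes, and in 43.8% of all 32851 windows of that length. Windows of H6pd and Rpe had none. The H6pd window, at 150003187 to 150003486 of chromosome 4, lay inside the gene as GENCODE annotates it, which ends at 150009023. The region around that end was not searched. The longer palindrome CACGTG, which contains ACGTG, was found in 0 windows of the members and in 7.15% of all windows. TGACNNNGC is the core of the antioxidant response element through which Nrf2 acts. It was found in the G6pdx window, 57 bases before the start, and in the second Pgd window, 4 bases after that start. The Pgd window shown here had no match to it, and 12.4% of all windows had one. The matches are letters in a sequence, and neither binding nor use of these sites was measured.

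Sequencing gave from 37252683 to 46515762 reads per library that fell in genes. Values are normalised reads, that is, reads divided by a size factor of the library. Vhl was at 318 ± 23.2 normalised reads in mutants and 1225 ± 107 in controls (SD, n = 4 each), a log2 fold change of -1.94 (limma adjusted p = 4.22e-08, two-sided exact permutation p = 0.0286). Of 15381 genes tested, 831 were higher and 466 lower in mutants at an adjusted p under 0.05, which is 8.43% in all, 5.4% higher and 3.03% lower. The median log2 fold change of all tested genes was -0.01. Each log2 fold change is the mutant mean less the control mean of log2(normalised reads + 1). The 10 nephron progenitor markers summed to between 97158 and 106340 normalised reads in mutants and between 96872 and 108819 in controls, and 1 rose and 2 fell. Six2 itself was at 24101 ± 2213 in mutants and 25540 ± 2806 in controls (SD, n = 4 each, limma adjusted p = 0.647).

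In the oxidative arm, 1 of 4 members rose and 3 were not called. Pgd encodes 6-phosphogluconate dehydrogenase, the enzyme of the second NADPH-producing step (chromosome 4, 149149991 to 149166771, mm10). Pgd had 7155, 7555, 6468 and 7672 normalised reads in mutants 1 to 4, against 4820, 5437, 5644 and 5187 in controls 1 to 4. Each mutant lay above each control, and the lowest mutant, mutant 3, was above the highest control, control 3. Pgd rose 1.37-fold (95% interval 1.23 to 1.52; log2 fold change 0.45, SE 0.07), with 7212 ± 543 in mutants and 5272 ± 355 in controls (SD, n = 4 each, limma adjusted p = 0.00208). In the two-sided exact permutation test p was 0.0286, the lowest that the 70 relabellings of 8 libraries can give. Among all tested genes, 8.54% were higher in every mutant than in every control and 6.72% lower, and 1 called member of 8 is close to the 8.43% of genes called overall. The count of calls therefore does not set the pathway apart.

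**Figure D1:**
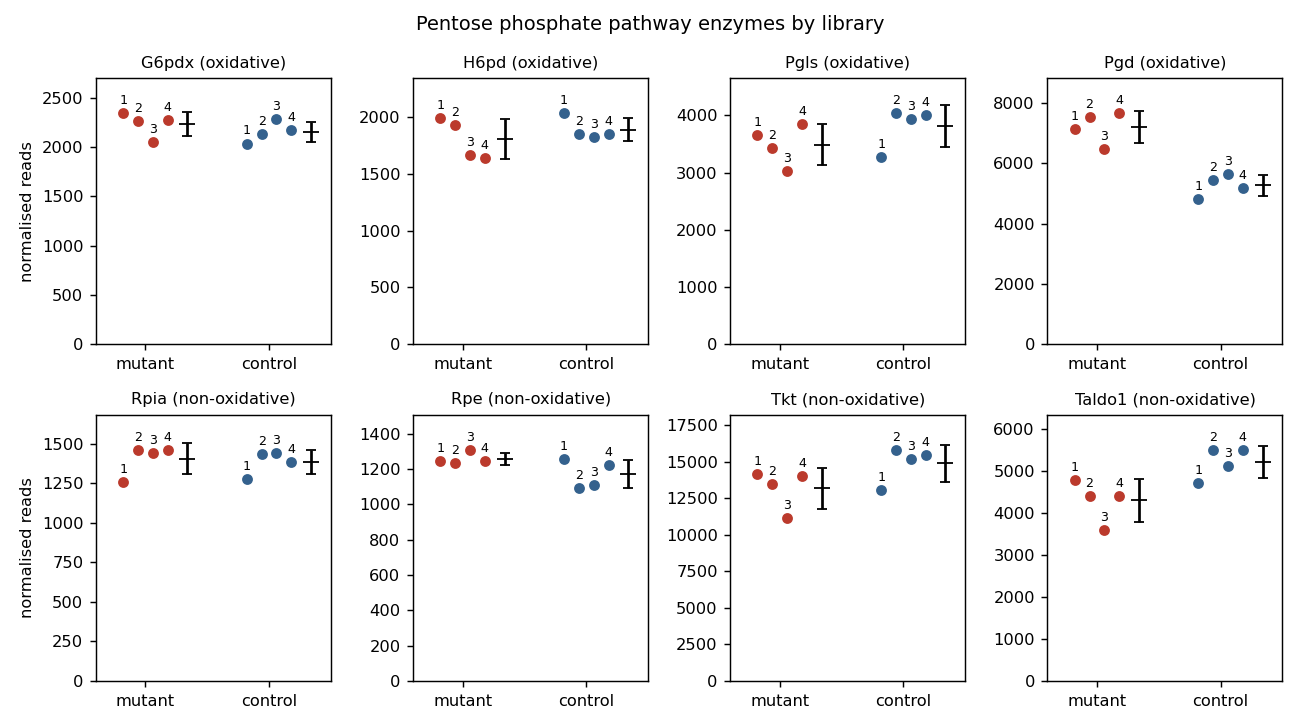
Normalised reads (y axis, from 0) of the 8 members in 4 mutant and 4 control libraries; numbers give the library, and black marks the mean ± SD. The Pgd values of mutants lie between 6468 and 7672, all above the 4820 to 5644 of controls, while in the other 7 panels the groups overlap.

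G6pdx encodes glucose-6-phosphate dehydrogenase, the first and rate-limiting enzyme of the cytosolic pathway. It lies on chromosome X. Its level was 2343, 2259, 2052 and 2278 normalised reads in mutants 1 to 4, against 2035, 2131, 2284 and 2167 in controls 1 to 4. The groups overlapped over most of their range. G6pdx had a log2 fold change of 0.05 (SE 0.06, limma adjusted p = 0.669), and its 95% interval allows from 0.945 to 1.14 times the control level. Mutant 2 and control 2 had almost no reads of Xist (51.9 and 8.84 normalised reads), the RNA of the inactive X chromosome, against at least 60017 in the other libraries. G6pdx in these 2 libraries lay within the range of the others of their group. Its transcript is 93.2% identical over 2332 bases to that of G6pd2, a copy of the gene on another chromosome, so reads could be split between them.

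Pgls encodes the lactonase between both dehydrogenases, and H6pd encodes an enzyme of the endoplasmic reticulum that carries out both of the first steps there. Pgls had 3660, 3429, 3025 and 3839 normalised reads in mutants 1 to 4, against 3266, 4038, 3928 and 3998 in controls 1 to 4. Control 1 was the low control, and the other 3 controls were above all mutants. The log2 fold change of Pgls was -0.13 (SE 0.09, limma adjusted p = 0.431; 95% interval 0.801 to 1.05 times the control level). H6pd had 1988, 1933, 1666 and 1643 normalised reads in mutants 1 to 4, against 2034, 1852, 1820 and 1850 in controls 1 to 4. Mutants 3 and 4 lay below all controls and mutants 1 and 2 did not. The log2 fold change of H6pd was -0.07 (SE 0.07, limma adjusted p = 0.645; 95% interval 0.852 to 1.07 times the control level).

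In the non-oxidative arm, 0 of 4 members were called by limma in either direction. With p under 0.05 and no adjustment, which 23.3% of all genes reached, 1 of them was lower. The authors' deposited table, which called 12.5% of its genes (7.12% higher, 5.35% lower), also had 1 of them lower. That member was Taldo1, which encodes transaldolase (chromosome 7, 141392199 to 141402968). Taldo1 had 4803, 4407, 3599 and 4419 normalised reads in mutants 1 to 4, against 4725, 5511, 5119 and 5512 in controls 1 to 4. Mutants 2, 3 and 4 lay below every control, and mutant 1 lay above control 1. Taldo1 had a log2 fold change of -0.28 (SE 0.09), with 4307 ± 507 in mutants and 5217 ± 376 in controls (SD, n = 4 each). It missed the threshold in limma (adjusted p = 0.0762; two-sided exact permutation p = 0.0571). The authors' deposited table gave a log2 fold change of -0.28 with an adjusted p of 0.0277. Taldo1 was also called without control 1 (adjusted p = 0.0429), without mutant 1 (adjusted p = 0.0418) and with weights for library quality (adjusted p = 0.00833, in a fit that called 19.5% of genes, 10.5% higher and 8.93% lower). Its level did not pass the test in the other 6 fits that left out 1 library, where the adjusted p reached 0.194. A processed pseudogene, Gm17823, is 94.8% identical to the Taldo1 transcript over 1016 bases and was not analysed here.

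Tkt encodes transketolase, which works beside transaldolase and was the member with the most reads. Tkt had 14148, 13464, 11130 and 14034 normalised reads in mutants 1 to 4, against 13072, 15830, 15227 and 15473 in controls 1 to 4. All 4 mutants lay below the control mean, but 3 of them were above control 1. Its log2 fold change was -0.18 (SE 0.09, limma adjusted p = 0.253; 95% interval 0.773 to 1.01 times the control level).

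Rpia and Rpe encode the isomerase and the epimerase that act on ribulose 5-phosphate, where the arms meet. Rpia had 1257, 1460, 1443 and 1460 normalised reads in mutants 1 to 4, against 1276, 1434, 1442 and 1381 in controls 1 to 4. The lowest library of each group was its number 1, and the other 6 lay close together. The log2 fold change of Rpia was 0.02 (SE 0.07, limma adjusted p = 0.898; 95% interval 0.914 to 1.13 times the control level). Rpe had 1245, 1233, 1310 and 1246 normalised reads in mutants 1 to 4, against 1259, 1094, 1112 and 1224 in controls 1 to 4. All 4 mutants were above the control mean, while control 1 was above 3 of them. The log2 fold change of Rpe was 0.10 (SE 0.06, limma adjusted p = 0.359; 95% interval of the log2 fold change -0.03 to 0.24). Exons of Rpe share 558 bases with Kansl1l on the other strand, and those of G6pdx share 418 bases with Ikbkg on the other strand. Those of Pgls share 776 bases with Fam129c on the same strand. The sources used here do not state whether strand was used in counting, so the levels of Rpe and G6pdx are uncertain. Strand cannot separate Pgls from Fam129c, so the level of Pgls is uncertain either way.

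**Figure D2:**
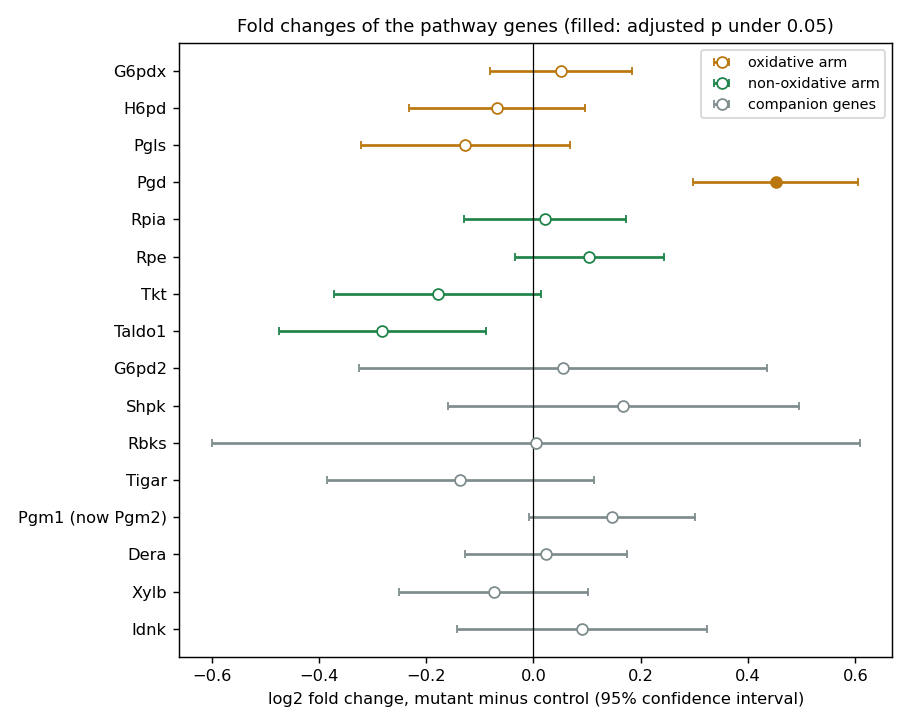
Log2 fold changes (x axis, mutant minus control) with 95% confidence intervals from limma for the 8 members by arm and for 8 companion genes of the pathway; filled points have an adjusted p under 0.05. Pgd is the filled point at 0.45, and the interval of Taldo1 runs from -0.47 to -0.09 with an adjusted p of 0.0762.

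Levels of different genes were compared per kilobase of the principal transcript. In mutants the order was Tkt (4094 ± 437 normalised reads per kb), Pgls (3906 ± 394), Taldo1 (3504 ± 412), Pgd (3252 ± 245), G6pdx (842 ± 47.6), Rpia (768 ± 54.1), Rpe (467 ± 12.9) and H6pd (395 ± 39.1; SD, n = 4 each). In controls the order was Tkt (4623 ± 386), Pgls (4264 ± 408), Taldo1 (4245 ± 306), Pgd (2377 ± 160), G6pdx (812 ± 38.8), Rpia (756 ± 41.7), Rpe (435 ± 30.2) and H6pd (413 ± 21.4; SD, n = 4 each). The order of the means was the same in both groups, and the place of Pgls in it carries the uncertainty of its overlap with Fam129c. Order was also read within libraries, as shares of the summed level per kb of the 8 members. Tkt was above Pgls, Taldo1 above Pgd and Rpe above H6pd in every library. Some gaps were narrow, as for Taldo1 and Pgd in mutant 3 (19.39% against 19.31%). Rpe and H6pd in control 2 were at 2.165% and 2.159%. The order was reversed for Pgls and Taldo1 in controls 1 and 4, and for G6pdx and Rpia in mutant 3. Of the summed level per kb of the 8 members, Pgd made up between 17.8% and 19.4% in mutants and between 12.6% and 13.9% in controls. The oxidative arm, Pgd included, made up between 47.8% and 49.4% in mutants and between 43.4% and 44.8% in controls. The mean share was 4.87 points higher in mutants for the arm and 5.62 points higher for Pgd alone. The summed level per kb of the oxidative arm overlapped, with 7441 to 8976 in mutants and 7043 to 8203 in controls. That of the non-oxidative arm also overlapped, with 7657 to 9448 in mutants and 9066 to 10586 in controls. Mean summed levels were 8395 in mutants and 7866 in controls for the oxidative arm. For the non-oxidative arm they were 8834 and 10060. The share of the oxidative arm therefore depends on both arms.

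Ratios between 2 members within a library do not depend on how the libraries were scaled. The 8 ratios computed were chosen after the values were seen and were not tested, and 6 of them did not overlap between the groups. All of these except G6pdx over Taldo1 have Pgd on top, so they share its rise. How often ratios of other gene pairs fail to overlap was not computed. Pgd over G6pdx was 3.05, 3.34, 3.15 and 3.37 in mutants 1 to 4, against 2.37, 2.55, 2.47 and 2.39 in controls 1 to 4. The SD of that ratio was 0.152 in mutants and 0.0828 in controls, and the gap between the groups was larger than the range within either. Pgd over Pgls was between 1.95 and 2.20 in mutants and between 1.30 and 1.48 in controls. Across the arms, Pgd over Taldo1 was between 1.49 and 1.80 in mutants and between 0.941 and 1.10 in controls. G6pdx over Taldo1, which does not contain Pgd, was between 0.488 and 0.570 in mutants and between 0.387 and 0.446 in controls, so those groups did not overlap either. G6pdx over H6pd overlapped between the groups. Taldo1 over Tkt, within the non-oxidative arm, was between 0.315 and 0.339 in mutants and between 0.336 and 0.361 in controls, and these ranges overlapped.

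**Figure D3:**
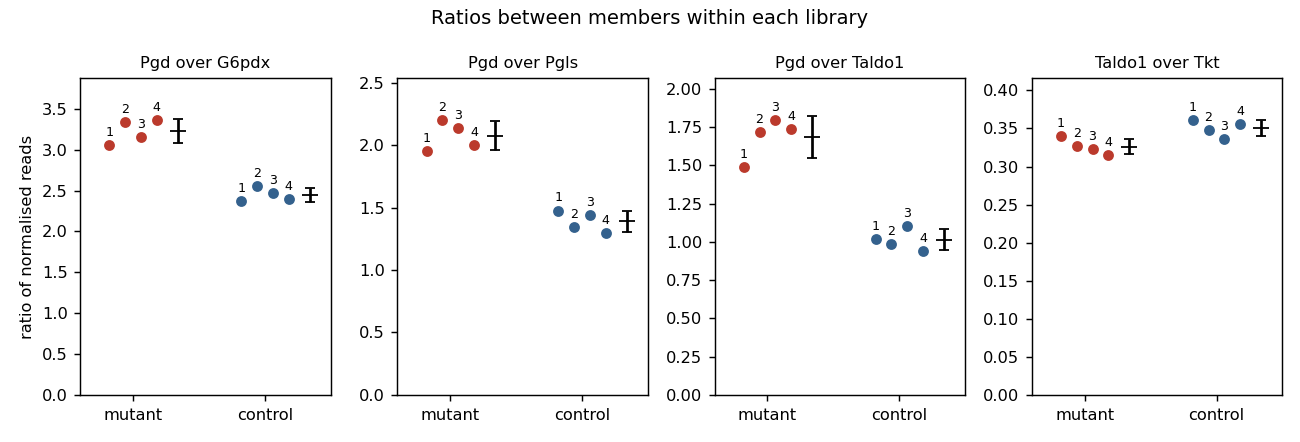
Ratio of normalised reads of 2 members within each library (y axis, from 0), for 4 mutant and 4 control libraries; numbers give the library, and black marks the mean ± SD. In the 3 panels with Pgd on top the groups do not overlap, with Pgd over G6pdx at 3.05 to 3.37 in mutants and 2.37 to 2.55 in controls, and Taldo1 over Tkt overlaps.

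Most members were low in the same pair of libraries. In mutant 3, 6 of 8 members lay below the mutant mean, with a median deviation of -0.14 (log2), where 51.4% of all tested genes lay below it. In control 1, 6 of 8 lay below the control mean, with a median deviation of -0.12, where 50.4% of all tested genes lay below it. The median deviation of the other 6 libraries was between 0.03 and 0.07. G6pdx, Pgls, Pgd, Tkt and Taldo1 were low in both libraries, and Rpe was high in both. Pgd was called without mutant 3 (log2 fold change 0.50, limma adjusted p = 0.00107) and without control 1 (log2 fold change 0.41, adjusted p = 0.00436). Without mutant 3, the log2 fold change of Taldo1 was -0.20 (adjusted p = 0.148) and that of Tkt was -0.10 (adjusted p = 0.543).

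**Figure D4:**
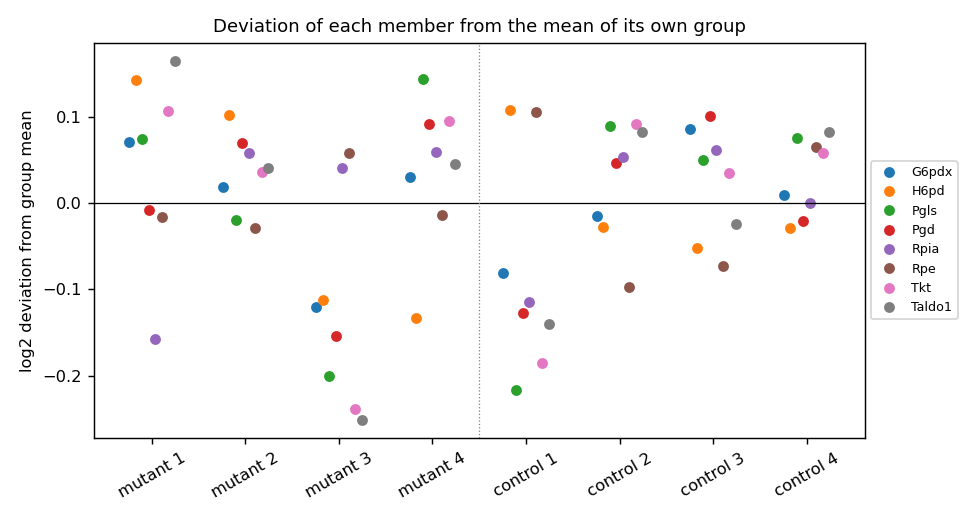
Deviation of each member's log2 value from the mean of its own group (y axis) in each library (x axis); each point is 1 member. Most members lie below 0 in mutant 3 and in control 1, where the medians are -0.14 and -0.12.

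Of the companion genes of the pathway, 0 of 8 tested were called by limma, where 8.43% of all tested genes were called. The count was also 0 without adjustment of the p-values (23.3% of all tested genes) and in the authors' deposited table (12.5% of its genes). Their log2 fold changes lay between -0.14 and 0.17 with a median of 0.04. Tigar, which encodes a phosphatase that removes fructose 2,6-bisphosphate and so favours the pathway, was at 357 ± 47.9 normalised reads in mutants and 392 ± 38.1 in controls (SD, n = 4 each, limma adjusted p = 0.517). Shpk, which encodes the kinase of sedoheptulose, was at 89.1 ± 7.67 in mutants and 79.5 ± 9.5 in controls (SD, n = 4 each, adjusted p = 0.551). G6pd2 was at 50.6 ± 4.91 in mutants and 48.8 ± 6.59 in controls (SD, n = 4 each, adjusted p = 0.894). The transketolase-like Tktl1 had between 0 and 10.2 normalised reads in a library and was not tested, and Tktl2 was not analysed here. The other 5, with levels from 16.7 to 2828 normalised reads in a library, were Rbks, Dera, Xylb, Idnk and the phosphopentomutase gene.

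The phosphopentomutase gene needs care with its symbol. The table lists it under the older symbol Pgm1 (ENSMUSG00000029171, now Pgm2), where it was at 1341 ± 89.5 in mutants and 1212 ± 83.5 in controls (SD, n = 4 each, limma adjusted p = 0.243). The gene that the table lists as Pgm2 (ENSMUSG00000025791, now Pgm1) encodes the mutase between glucose 1-phosphate and glucose 6-phosphate and lies outside the pathway. It was named after its values were seen, and it rose 8.25-fold, with 12503 ± 963 in mutants and 1516 ± 129 in controls (SD, n = 4 each, adjusted p = 4.78e-10).

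Enzymes of glycolysis that use the same sugar phosphates were listed beside the members. Of 12 tested, 9 rose, 0 fell and 3 were not called, with a median log2 fold change of 1.53. Among all tested genes, 5.4% rose and 3.03% fell. The authors' deposited table had 9 higher and 0 lower as well. Aldoa and Tpi1, which encode aldolase and triose phosphate isomerase and handle the glyceraldehyde 3-phosphate that the pathway returns, rose 3.60-fold and 4.17-fold (limma adjusted p = 1.14e-07 and 4.22e-08). Pfkp, a phosphofructokinase, rose 11.9-fold and Aldoc, an aldolase, 7.59-fold (adjusted p = 3.34e-10 and 9.19e-09). Pfkm, another phosphofructokinase, was at 4346 ± 188 in mutants and 4504 ± 280 in controls (SD, n = 4 each, adjusted p = 0.672). Fbp1, a fructose bisphosphatase, had 182 ± 104 normalised reads in mutants and 201 ± 146 in controls (SD, n = 4 each, limma adjusted p = 0.995). The 1.37-fold rise of Pgd was smaller than each of the 9 rises, of which the smallest was the 1.60-fold rise of Hk1.

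Genes listed as other makers of NADPH, or of the NADP it is made from, changed in both directions. They were listed by name, and whether each enzyme uses NADP or NAD in these cells was not examined. Of 13 tested, 2 rose, 3 fell and 8 were not called, with a median log2 fold change of -0.05. All tested genes gave 5.4% higher and 3.03% lower. Nadk2, the mitochondrial NAD kinase, rose 1.40-fold, with 2950 ± 193 in mutants and 2101 ± 88.5 in controls (SD, n = 4 each, limma adjusted p = 4.39e-04). The mitochondrial malic enzyme Me2 rose 1.29-fold (adjusted p = 0.0116). The folate enzymes Mthfd1 and Mthfd2 fell by 0.36 and 0.38 on the log2 scale (adjusted p = 0.00785 and 0.0169). Leaving out control 2, control 4 or mutant 3 removed the call of Mthfd2, with an adjusted p of up to 0.061. Idh2, the mitochondrial NADP-dependent isocitrate dehydrogenase, fell by 0.28 on the log2 scale (limma adjusted p = 0.0354). Its call remained in 2 of the 8 fits that left out 1 library, with an adjusted p of up to 0.108. Over those fits the number of falls in the list was between 1 and 3. The cytosolic NAD kinase Nadk and the transhydrogenase Nnt were not called (adjusted p = 0.198 and 0.804).

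Among enzymes that use ribose 5-phosphate or build nucleotides from it, 1 of 24 rose, 4 fell and 19 did not pass the test. Of all tested genes, 5.4% rose and 3.03% fell. Unadjusted p-values under 0.05, which 23.3% of all tested genes reached, were found for 2 higher and 10 lower genes. In the authors' deposited table, 2 were called higher and 7 lower, against 7.12% and 5.35% of all its genes. The median log2 fold change was -0.13. Hprt, which salvages purine bases with phosphoribosyl pyrophosphate, rose 1.78-fold, with 3942 ± 121 in mutants and 2216 ± 73.8 in controls (SD, n = 4 each, limma adjusted p = 9.06e-07). Ctps, Umps and Impdh2, enzymes of pyrimidine and guanine nucleotide synthesis, fell by 0.28, 0.29 and 0.30 on the log2 scale (adjusted p = 0.0169, 0.018 and 0.0295). Prps1, which turns ribose 5-phosphate into phosphoribosyl pyrophosphate and was named after its values were seen, fell by 0.28 (adjusted p = 0.031). Each of these 4 falls lost its call when 1 of several libraries was left out, among them control 4 in every case. The adjusted p then reached 0.0582 for Ctps, 0.061 for Umps, 0.0911 for Impdh2 and 0.0926 for Prps1. Paics and Rrm1 were not called (adjusted p = 0.105 and 0.348).

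Antioxidant enzymes and partners that draw on NADPH gave 1 call in 16, where 8.43% of all tested genes were called. Prdx3, the mitochondrial peroxiredoxin, fell by 0.27 on the log2 scale (limma adjusted p = 0.0366), a call that held only without control 1 or mutant 1 among the fits that left out 1 library (adjusted p up to 0.112). Unadjusted p-values under 0.05, which 23.3% of all tested genes reached, were found for 1 higher and 5 lower genes. In the authors' deposited table, which called 12.5% of its genes, 1 was called higher and 2 lower. Prdx1 and Txn1 were not called (adjusted p = 0.449 and 0.418). The median log2 fold change was -0.08.

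The tested genes whose profile over the 8 libraries was most like that of G6pdx were Ctsa, Gpr137 and Rnf34. Their log2 values, centred on the gene's mean, differed from those of G6pdx by 0.0225, 0.0231 and 0.0234 on average. Those most like Tkt were Mrpl20, Atp5l and Cox6c, with mean differences of 0.0207, 0.0209 and 0.021. With 8 libraries and 15381 genes, such close profiles are a description of these libraries.

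Markers of other cell types were also read. The 8 podocyte markers summed to between 2121 and 3725 normalised reads in mutants and between 2427 and 9049 in controls. Of these, 1 rose and 1 fell by limma, 1 was higher and 2 lower in the authors' deposited table, and the median log2 fold change was -0.86 (range -2.65 to 0.35). The 8 endothelial markers, of which 1 rose, summed to between 1805 and 2349 in mutants and between 1332 and 2442 in controls. The sums for the 9 tubule markers were between 4331 and 10675 in mutants and between 2501 and 9082 in controls. The sums for the 8 ureteric bud markers were between 2795 and 5092 in mutants and between 1963 and 4579 in controls, with a median log2 fold change of 0.58. Those for the 8 leukocyte markers were between 550 and 905 in mutants and between 501 and 945 in controls. The sums for the 7 stromal markers matched were between 19682 and 41219 in mutants and between 23478 and 52157 in controls. Renal vesicle markers (8 tested, 0 called by limma) summed to between 26612 and 32672 in mutants and between 28018 and 33162 in controls. Before adjustment 1 of them was lower, as in the authors' deposited table. The 5 erythroid markers matched summed to between 171 and 297 in mutants and between 207 and 412 in controls. Of these, 3 were tested and 0 called by limma, and 1 was lower before adjustment. None of the tubule, ureteric bud, leukocyte or stromal markers was called by limma (0 called; before adjustment 1 ureteric bud marker was higher, as in the authors' deposited table). Their part in the levels of the members was not tested.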

How the data were processed

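Polyadenylated RNA of sorted cells was sequenced from 4 mutant and 4 control libraries with a kit that keeps strand, as the labels' protocols state. STAR 2.5.3a, DESeq2 1.18.1 and mm10 are named in the submitters' processing notes. The sources used here do not name the read counter or annotation. The authors deposited a signal per gene and library, with log2 fold changes and p-values that carry the column names of DESeq2. A deposited score was not used. The values show that the deposited signal is reads divided by size factors, divided a second time with the factors recycled down the genes in order of symbol, and rounded. Once this was undone, whole reads gave back the deposited mean for 20254 of 20254 genes (relative tolerance 1e-09). Assuming a single division gave it back for 0 of 11635 genes of at least 100.

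Reads divided once by the size factors were put on the scale log2(value + 1). Genes that reached 10 normalised reads in 4 or more libraries were tested with limma 3.58.1 in R 4.3.3 (moderated variances with a trend, robust, two-sided), with Benjamini-Hochberg adjustment over all 15381 genes. Exact permutation tests of the mean log2 difference were two-sided. The limma step was also run on simulated reads with the same dispersion for all genes, and those results are not given here. Recovery of whole reads was not part of that simulation. Libraries held 37252683 to 46515762 reads, and the intervals given rest on the spread between libraries. Transcript lengths and gene overlaps came from GENCODE M21 (GRCm38), promoter windows from RefSeq, and list symbols were matched by Ensembl ID. The members, lists and alternatives were chosen with earlier results of these data known. Named genes were Vhl, the members, the pathway's companions, up to 4 called genes with the smallest adjusted p and up to 2 uncalled genes of highest level per list, and the 3 genes most like G6pdx and Tkt.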

Additional observations from a re-analysis of the deposited data

Results flagged for a closer look

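In some groups of 4 libraries, 1 library stood apart from the other 3 by more than Dixon's 95% critical value, set on the gap to its neighbour over the group's range. This was looked for in 34 groups, and chance gives about 1 in 20. H6pd in control 1, at 2034 normalised reads, was above the other controls, the next of which was at 1852. Pgls in control 1, at 3266, was below the other controls, the next of which was at 3928. Rpia in mutant 1, at 1257, was below the other mutants, the next of which was at 1443. Rpe in mutant 3, at 1310, was above the other mutants, the next of which was at 1246. Among the companion genes, Shpk was at 65.3 in control 4, and Rbks was at 23.2 in mutant 2 and at 16.7 in control 2, each below the rest of its group.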

How the results depend on the processing

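Pgd and Vhl kept their direction and their call under all 20 alternatives, with log2 fold changes of Pgd from 0.41 to 0.50 and an adjusted p of at most 0.0204. G6pdx, H6pd, Pgls, Rpe and Tkt kept their direction and were called in none, and over the fits that left out 1 library their log2 fold changes were 0.02 to 0.09, -0.11 to -0.02, -0.20 to -0.06, 0.07 to 0.14 and -0.24 to -0.10 in that order. Rpia, at 0.02, turned to -0.02 without control 1 (adjusted p = 0.906) and lay between -0.0171 and 0.0736 over the fits that left out 1 library. Taldo1 kept its direction in all 20 and was called in 4, with a log2 fold change of -0.31 with library quality weights, -0.28 in the authors' deposited table, and between -0.34 and -0.20 over the fits that left out 1 library. The number of members called lower was 0 in the full fit and 1 in those 4 settings, and 0 to 1 over the fits that left out 1 library. The number of all genes called higher (831) and lower (466) was 537 and 160 with the deposited values as they are, 1622 and 1374 with library quality weights, 487 and 175 without control 2 and mutant 2, and 541 and 223 without control 3 and mutant 2. The authors' deposited table called 810 lower. Leaving out 1 library gave 541 (without mutant 4) to 913 higher and 231 (without control 4) to 652 lower; the number lower was also low without control 2 (263), mutant 3 (279) or mutant 4 (233). Over the companion lists, 8 genes were called lower, against 1 with the deposited values, 18 with library quality weights, 1 without control 2 and mutant 2, 1 without control 3 and mutant 2, and 1 to 12 when 1 library was left out (2 without control 2, 4 without control 3, 1 without control 4, 5 without mutant 2, 2 without mutant 3 and 3 without mutant 4). Deviations of same-numbered libraries had correlations of 0.21, -0.14, -0.14 and 0.06, and 0 of 4 controls correlated best with the mutant of its number. With 4 libraries in each group, these values cannot settle whether the numbers pair the libraries. With the replicate number as a block, 550 genes were called higher, 216 lower and 2 of the companion genes lower. The cause of these differences was not tested.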
